A study of Homo sapiens with 10 samples.

Results

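The replication-dependent histone genes were taken as the 60 symbols starting with HIST1H, HIST2H, HIST3H or HIST4H that appear in both deposited count tables, out of 19695 genes in all and 18262 genes in both tables. By symbol they fall into 5 linker histones H1, 14 H2A, 19 H2B, 11 H3 and 11 H4 members. RefSeq lists 58 of them as protein coding and 2 of the H2B symbols, *HIST2H2BA* and *HIST2H2BC*, as transcribed pseudogenes, and neither of these passed the filter on low counts. Of these genes, 49 lie in the HIST1 cluster on chromosome 6, 7 carry a HIST2 and 3 a HIST3 symbol on chromosome 1, and *HIST4H4* lies on chromosome 12. A further 3 symbols, *HIST1H1A*, *HIST1H2BA* and *HIST1H3G*, stood in a single table with at most 2 counts in a library and were left out. The study asked how TRPS1, a GATA family zinc finger protein, and CHD4, the ATPase of the NuRD chromatin remodeling complex, act on gene expression in T47D cells, an established human luminal breast cancer line. RNA was sequenced 72 h after transfection of control, TRPS1 or CHD4 siRNA, with 2 libraries each, and TRPS1 binding was mapped by ChIP-seq in T47D cells, with 2 TRPS1 and 2 input libraries. The labels name an siRNA for CHD4, while the RNA-seq methods of the study name an shRNA. Nothing in the labels says that the 2 libraries of a group came from separate cultures, so p-values measure only the spread between these libraries, which may be technical.

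Replication-dependent histone genes are transcribed mainly while DNA is copied, when new nucleosomes need histones in bulk. H2A, H2B, H3 and H4 form the nucleosome core and H1 binds the DNA that links nucleosomes. Their transcripts usually carry no introns and end in a stem-loop rather than a poly(A) tail, so they are seen in libraries made by depletion of ribosomal RNA, as here, and largely missed by poly(A) selection. NPAT drives their transcription at the start of S phase, and SLBP binds the stem-loop and takes part in processing, export and translation. Many members code for the same or nearly the same protein, and reads that fit several copies can be split or lost in counting. Splitting makes the value of a single gene less certain than the sum of its class, while lost reads are missing from both.

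The sequences before the gene starts show what these genes share and where they differ. RefSeq (GRCh38.p14) held windows for 53 of the 60 genes, from 250 bases before to 50 bases after the start. The CCAAT box (CCAAT) was found on either strand in 46 members (86.8%), against 32.0% of all 35116 windows, and the TATA box (TATAAA) in 35 members (66.0%, against 10.7%). The octamer (ATTTGCAT), bound by POU2F1, was found in 24 members (45.3%, against 1.63%), 13 of 17 H2B and 10 of 13 H2A genes among them. An E2F site (TTTCGCGC or TTTGGCGC) was found in 11 members (20.8%, against 0.968%). GATA sites (GATAA or GATAG preceded by A or T), of the kind GATA factors bind, were found in 9 members (17.0%, against 22.3%), and the longer form AGATAAGG, which holds one of them, in 0 members (0.723% of all windows). H4 genes stood apart from the other classes in the CCAAT box, found in 2 of 9 windows and in every gene with a window of the other classes. No H4 gene held an octamer, E2F or GATA site. The octamer and the E2F site were also absent from the 5 H1 genes and found in 1 of 9 H3 genes each. These are matches of letters and not measured binding. Neighbors on opposite strands whose starts lie within 250 bases share this sequence, so 1 match can count for both genes, as with many H2A and H2B genes. A member with 2 windows counted once if either matched, while the share over all windows counts windows, so the 2 shares are not fully alike.

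Stretches that end at the base before a start are printed 5′ to 3′ for 4 genes described in the results, each on the strand of its gene, with the CCAAT, TATA, octamer, E2F and GATA letters in capitals. *HIST1H1B* (chr6:27867589-27867738, minus strand) and *HIST1H4D* (chr6:26189113-26189262, minus strand) were lower in both knockdowns, *HIST1H3A* (chr6:26020301-26020450, plus strand) holds 2 GATA matches, each next to a CCAAT box, and *HIST1H4H* (chr6:26285535-26285684, minus strand) has its start nearest to a TRPS1 peak and holds none of these letters.
HIST1H1B: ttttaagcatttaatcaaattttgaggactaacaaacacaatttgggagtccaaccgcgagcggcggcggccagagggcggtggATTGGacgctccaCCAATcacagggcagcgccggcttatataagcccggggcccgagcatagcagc
HIST1H4D: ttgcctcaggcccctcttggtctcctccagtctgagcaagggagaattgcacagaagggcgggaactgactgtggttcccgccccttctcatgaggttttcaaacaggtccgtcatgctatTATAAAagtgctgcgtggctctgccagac
HIST1H3A: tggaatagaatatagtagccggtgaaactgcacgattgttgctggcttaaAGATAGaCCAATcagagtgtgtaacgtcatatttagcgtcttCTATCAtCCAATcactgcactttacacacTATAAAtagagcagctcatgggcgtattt
HIST1H4H: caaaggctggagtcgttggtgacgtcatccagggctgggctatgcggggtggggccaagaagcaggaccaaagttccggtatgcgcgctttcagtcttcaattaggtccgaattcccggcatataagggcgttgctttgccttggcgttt

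Many H2A and H2B genes are divergent neighbors that share the sequence between their starts, and 3 such intervals are printed on the plus strand because the values of their genes differ. The interval of *HIST1H2AM* and *HIST1H2BO* (chr6:27893186-27893424) belongs to a pair with both genes lower. That of *HIST2H2BE* and *HIST2H2AC* (chr1:149886683-149886917) belongs to a pair with the H2A gene alone past the thresholds, and that of *HIST3H2A* and *HIST3H2BB* (chr1:228457874-228458102) to a pair with neither. The first interval holds an octamer, an E2F site, a TATA box and 3 CCAAT boxes, the second an octamer, 2 TATA boxes and 3 CCAAT boxes, and the third 3 CCAAT boxes and none of the other letters.
HIST1H2AM and HIST1H2BO: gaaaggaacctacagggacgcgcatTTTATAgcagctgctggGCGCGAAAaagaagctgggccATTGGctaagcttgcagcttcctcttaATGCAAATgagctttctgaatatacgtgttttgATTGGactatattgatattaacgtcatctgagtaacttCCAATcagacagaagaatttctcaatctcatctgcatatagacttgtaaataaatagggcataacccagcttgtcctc
HIST2H2BE and HIST2H2AC: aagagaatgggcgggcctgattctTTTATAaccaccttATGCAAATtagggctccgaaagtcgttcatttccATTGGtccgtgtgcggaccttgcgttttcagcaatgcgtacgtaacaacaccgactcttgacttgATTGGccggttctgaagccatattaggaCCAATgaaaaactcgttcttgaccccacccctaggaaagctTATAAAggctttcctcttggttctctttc
HIST3H2A and HIST3H2BB: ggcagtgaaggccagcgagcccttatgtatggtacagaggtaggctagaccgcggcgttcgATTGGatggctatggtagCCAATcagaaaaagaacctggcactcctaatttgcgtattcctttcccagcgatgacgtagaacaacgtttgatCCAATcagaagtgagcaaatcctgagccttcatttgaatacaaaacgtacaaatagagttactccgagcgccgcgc

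The RNA-seq libraries held 10333138 to 14668358 counts in genes. CHD4 was at 300.3 and 285.5 CPM (counts scaled to the library total with TMM factors) with control siRNA and at 95.8 and 54.3 CPM with CHD4 siRNA. TRPS1 was at 1445 and 2269 CPM with control siRNA and at 1166 and 721.6 CPM with TRPS1 siRNA, a log2 fold change of -0.97 (unadjusted p = 0.0459). The 2 control libraries agreed less than those of the knockdowns. Their log2 CPM values correlated at 0.881 across 13269 genes, against 0.976 and 0.967 within the knockdowns. Fewer genes had a count in control siRNA replicate 1 (14636) than in replicate 2 (16779), and both were below the knockdown libraries (17691 to 17796). Calls are therefore given without control replicate 1 as well. Of 10 luminal markers of T47D, the keratins *KRT8*, *KRT18* and *KRT19* summed to 11320 and 7182 CPM with control siRNA, 3261 and 3478 CPM with TRPS1 siRNA, and 3222 and 2782 CPM with CHD4 siRNA. The other 7, ESR1, PGR, GATA3, FOXA1, EPCAM, CDH1 and the silenced TRPS1, summed to 4837 and 6534, 4153 and 3471, and 6302 and 4122 CPM in the same order, so that the CHD4 siRNA and control libraries overlapped. Of 9 markers of fibroblasts, leukocytes, endothelium and basal epithelium, COL1A1 (59.2 to 156.4 CPM) was the one that passed the filter, and the part of cell makeup in the results was not tested. In bulk RNA, fewer cells in S phase and less histone RNA per cell cannot be told apart.

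Histone transcripts took a smaller share of the counts upon silencing *TRPS1* or *CHD4*. They made up 0.354% and 0.220% of the counts with control siRNA, 0.147% and 0.165% with TRPS1 siRNA, and 0.118% and 0.178% with CHD4 siRNA. Summed over the 60 genes, the level was 3809 and 2309 CPM in control siRNA replicates 1 and 2, 1457 and 1569 CPM with TRPS1 siRNA, and 1184 and 1658 CPM with CHD4 siRNA. Each of the 4 knockdown libraries was below both control libraries, and control replicate 1 was 1.65 times replicate 2. The group means were 3059 ± 1061, 1513 ± 79.6 and 1421 ± 335.4 CPM (SD, n = 2 each), so the mean was 49.5% of control with TRPS1 siRNA and 46.4% with CHD4 siRNA, log2 ratios of -1.02 and -1.11. Against control replicate 2 alone, the TRPS1 siRNA libraries were at 63.1% and 68.0% and the CHD4 siRNA libraries at 51.3% and 71.8%, and the log2 ratios shrank to -0.61 and -0.70. Both knockdowns were set against the same control libraries, and an exact permutation test of 2 libraries against 2 cannot reach a two-sided p of 0.05.

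All 5 classes had lower sums, by different amounts that were not tested against each other. H2A, the class with the widest spread in the controls, summed to 1425 and 498.3 CPM with control siRNA, 309.6 and 376.5 CPM with TRPS1 siRNA, and 236.9 and 378.1 CPM with CHD4 siRNA. H1 summed to 572.2 and 459.1 CPM in the controls, which agree better, and to 190.0 and 216.4 CPM with TRPS1 siRNA and 193.7 and 251.7 CPM with CHD4 siRNA. Against control replicate 2 alone, H1 was at 41.4% and 47.1% with TRPS1 siRNA and at 42.2% and 54.8% with CHD4 siRNA. H2B summed to 1011 and 727.5 CPM in the controls, 570.4 and 586.9 CPM with TRPS1 siRNA and 425.8 and 634.1 CPM with CHD4 siRNA, which left it at 78.4% and 80.7%, and 58.5% and 87.2%, of control replicate 2. H3 (448.3 and 353.7 CPM in the controls) was at 190.2 and 224.3 CPM with TRPS1 siRNA and at 148.0 and 233.5 CPM with CHD4 siRNA. H4 (352.8 and 270.5 CPM) was at 196.4 and 164.9 CPM with TRPS1 siRNA and at 179.1 and 160.4 CPM with CHD4 siRNA. In each of the 5 classes, the 4 knockdown libraries were below both controls.

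**Figure D1:**
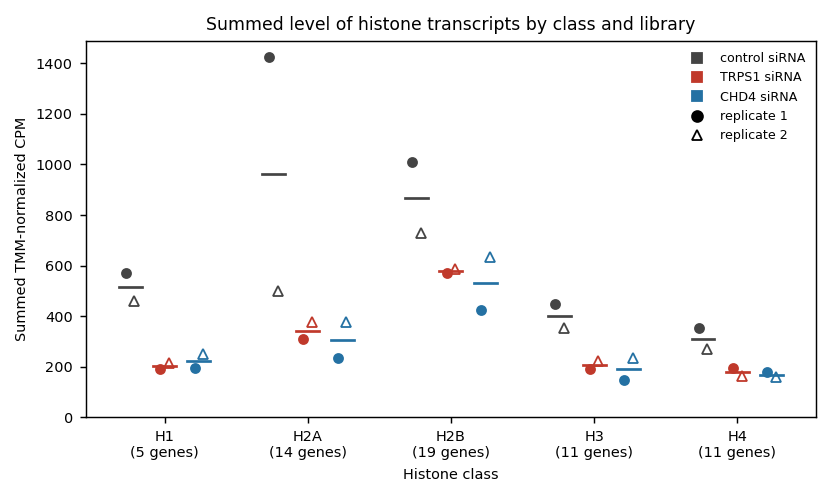
Summed TMM-normalized CPM (y axis, from 0) of the members of each histone class (x axis), with a point per library (filled circles replicate 1, open triangles replicate 2) and a bar at the mean of each group. The knockdown libraries sit below both controls in each class, and the H2A sum of control siRNA replicate 1 (1425 CPM) lies far above that of replicate 2 (498.3 CPM).

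Control siRNA replicate 1 also held a different mix of classes, since H2A made up 37.4% of its histone counts and 20.0 to 24.0% in the other 5 libraries. The 5 H2A members that differed most in CPM were *HIST1H2AJ* (246.6 CPM in replicate 1 and 36.4 CPM in replicate 2), *HIST2H2AC* (375.5 and 86.3 CPM), *HIST2H2AB* (65.8 and 16.3 CPM), *HIST1H2AM* (356.5 and 122.3 CPM) and *HIST1H2AE* (227.4 and 110.9 CPM). Other members went the opposite way, such as *HIST1H3F*, at 14.7 CPM in replicate 1 and 64.4 CPM in replicate 2. *HIST1H1D*, *HIST1H2BO* and *HIST1H2AH* differed little between the controls. The genes in this paragraph other than those past a threshold were chosen after their values were seen.

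To find which genes carried the lower sums, each gene was tested in edgeR against control siRNA and called where it differed more than 2-fold at an unadjusted p under 0.05. Upon silencing *TRPS1*, 49 of the 60 members passed the filter on low counts and 15 of these 49 were called lower and 0 higher, where 3.17% of all 12921 genes tested were called lower and 2.7% higher. The median log2 fold change of the 49 was -0.86, against -0.02 over all genes tested, and 44 of the 49 were below 0 (51.5% of all genes tested). Both knockdown libraries were below both controls for 28 of the 49 (background 21.6%), and above both controls for 1 (background 22.5%). At an adjusted p under 0.05, edgeR's quasi-likelihood test called 0 members and 0 genes in all, with 16 members lower (background 3.97%) and 0 higher (background 3.01%) at an unadjusted p under 0.05. At an adjusted p under 0.05, the likelihood ratio test called 0 members (background 0.263%) and DESeq2 called 1 (background 0.302%). The count of 15 depended on single libraries: it was 9 without control replicate 1 (background 2.4%) with *HIST2H2BE* called higher, 25 without control replicate 2 (background 14.4%) with *HIST1H3F* called higher, 2 without TRPS1 siRNA replicate 1 (background 0.336%) and 6 without TRPS1 siRNA replicate 2 (background 0.814%). The median stayed between -1.15 and -0.57.

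Upon silencing *CHD4*, 48 members passed the filter and 19 were called lower and 0 higher, where 2.85% of all 12918 genes tested were called lower and 2.6% higher. The median log2 fold change was -0.91, against -0.02 over all genes tested, and 45 of the 48 were below 0 (background 51.5%). The groups did not overlap for 30 members that were lower (background 20%) and for 0 that were higher (background 19.8%). edgeR's quasi-likelihood test again called 0 members at an adjusted p under 0.05, with 20 lower (background 3.17%) and 0 higher (background 2.79%) at an unadjusted p under 0.05. At the adjusted level the likelihood ratio test called 0 members (background 0.449%) and DESeq2 called 2 (background 0.387%). The count was 9 without control replicate 1 (background 2.06%), 24 without control replicate 2 (background 13.4%) with *HIST1H3F* called higher, 4 without CHD4 siRNA replicate 1 (background 0.406%) and 9 without CHD4 siRNA replicate 2 (background 0.978%). These values share the control libraries with those of *TRPS1* silencing and are no second measurement of the controls.

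**Figure D2:**
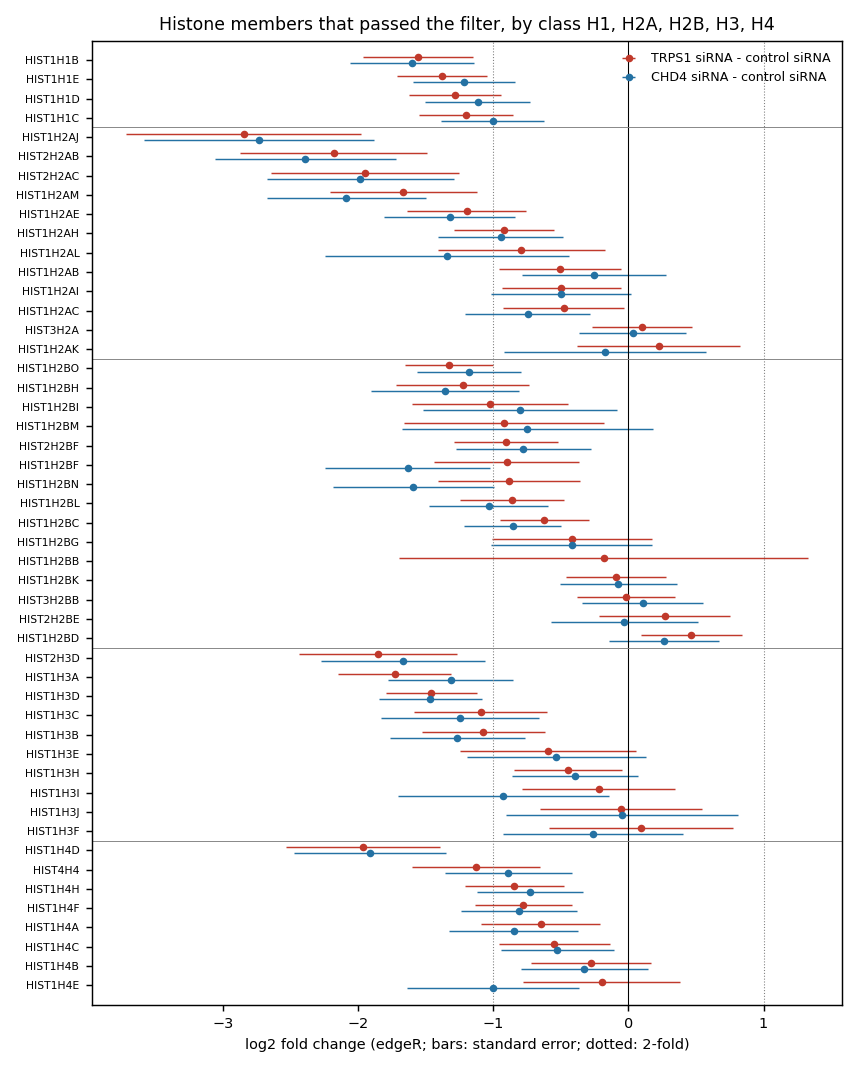
log2 fold change (x axis, edgeR, with standard errors as bars) of the 49 members that passed the filter in the TRPS1 comparison (y axis), grouped by class, for TRPS1 siRNA and CHD4 siRNA against control siRNA. *HIST1H2BB* has no CHD4 value because it did not pass the filter there. Points to the left of the dotted line at -1 are more than 2-fold lower, and *HIST1H2AJ* has the lowest value, with a wide error.

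The tested linker histones were lower throughout. All 4 tested H1 genes were called lower in both comparisons, while *HIST1H1T*, the testis form, stayed at no more than 1.69 CPM and was not tested. It was at 0 and 0.15 CPM in the controls, 0.58 and 0.13 CPM with TRPS1 siRNA, and 1.03 and 1.69 CPM with CHD4 siRNA. *HIST1H1B* (RefSeq symbol H1-5; chr6:27866792-27867588, minus strand) was at 164.6 and 92.7 CPM with control siRNA, 40.4 and 46.99 CPM with TRPS1 siRNA, and 32.5 and 52.0 CPM with CHD4 siRNA. The groups did not overlap, and the log2 fold changes were -1.55 (SE 0.406, edgeR adjusted p = 0.659) and -1.60 (SE 0.460, adjusted p = 0.792). *HIST1H1D*, the H1 gene with the highest level per kb of gene span (153.7 CPM per kb), was at 189.1 and 193.7 CPM in the controls, 66.7 and 90.4 CPM with TRPS1 siRNA, and 69.0 and 106.8 CPM with CHD4 siRNA, log2 fold changes of -1.28 and -1.11. Its controls were almost equal, so its change did not rest on control replicate 1. *HIST1H1E* was at 90.6 and 79.6, 32.4 and 32.9, and 33.6 and 39.4 CPM in the same order, log2 fold changes of -1.38 and -1.21, and *HIST1H1C* had -1.20 and -1.003. Without control replicate 1, *HIST1H1B*, *HIST1H1D* and *HIST1H1E* were still called lower in both comparisons, and *HIST1H1C* was at -0.95 and -0.74. Without TRPS1 siRNA replicate 1 or 2, none of the 4 H1 genes was called, with log2 fold changes of -1.66 to -1.06. Without CHD4 siRNA replicate 1 none was called either, with values of -1.28 to -0.81, and without CHD4 siRNA replicate 2 *HIST1H1B* alone was called.

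Among the H2A genes, 5 of 12 tested were called lower in each comparison. *HIST1H2AJ* (chr6:27814302-27814777, minus strand) was at 246.6 and 36.4 CPM in the controls, 15.3 and 23.9 CPM with TRPS1 siRNA, and 14.3 and 28.1 CPM with CHD4 siRNA. Its log2 fold changes, -2.85 (SE 0.869) and -2.73 (SE 0.851), were the lowest of the members, but became -0.88 and -0.76 without control replicate 1. *HIST2H2AC* (chr1:149886918-149887411, plus strand), which codes for a common H2A and had 235.1 CPM per kb, was at 375.5 and 86.3 CPM in the controls, 47.2 and 72.0 CPM with TRPS1 siRNA, and 41.3 and 74.8 CPM with CHD4 siRNA. Here too all knockdown libraries were below both controls, and the log2 fold changes of -1.95 and -1.98 became -0.52 and -0.55 without control replicate 1. *HIST1H2AM* had the highest level per kb of the 60 members (253.8 CPM per kb), at 356.5 and 122.3 CPM in the controls, 65.9 and 84.8 CPM with TRPS1 siRNA, and 39.9 and 72.2 CPM with CHD4 siRNA. Its log2 fold changes of -1.66 and -2.08 became -0.69 and -1.11 without control replicate 1, so that the call was kept for *CHD4* silencing alone. *HIST1H2AE* (-1.20 and -1.32, and -0.59 and -0.70 without that library) and *HIST2H2AB* (-2.18 and -2.39, and -0.85 and -1.05) were the other called H2A genes. The remaining 7 tested H2A genes ranged from -0.92 to 0.22 with TRPS1 siRNA and from -1.34 to 0.03 with CHD4 siRNA. With either TRPS1 siRNA replicate or either CHD4 siRNA replicate left out, *HIST1H2AJ* and *HIST2H2AB* kept their calls. *HIST1H2AM* lost its call without TRPS1 siRNA replicate 1, *HIST2H2AC* without TRPS1 siRNA replicate 1 and without CHD4 siRNA replicate 1, and *HIST1H2AE* with each of these 4 libraries left out.

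The H2B genes had 2 of 15 tested genes called lower upon silencing *TRPS1* and 5 of 14 upon silencing *CHD4*. *HIST1H2BO* (chr6:27893425-27893891, plus strand) was at 135.9 and 130.6 CPM in the controls, 49.0 and 56.8 CPM with TRPS1 siRNA, and 47.5 and 69.7 CPM with CHD4 siRNA. Its controls differed little, and its log2 fold changes were -1.33 (SE 0.328) and -1.18 (SE 0.386). *HIST1H2BH*, at 59.8 and 25.7 CPM in the controls and 11.8 to 21.4 CPM in the knockdowns, had -1.23 and -1.36, which became -0.49 and -0.61 without control replicate 1. Upon silencing *CHD4*, *HIST1H2BF* (-1.63), *HIST1H2BN* (-1.59) and *HIST1H2BL* (-1.03) were called as well, and upon silencing *TRPS1* they had -0.90, -0.88 and -0.86. Without control replicate 1 these 3 genes were at -0.69, -0.69 and -0.73 upon silencing *CHD4*. The difference between the knockdowns was tested directly, and for none of the 3 did it pass either threshold. With either TRPS1 siRNA replicate left out, neither *HIST1H2BO* nor *HIST1H2BH* was called. Without CHD4 siRNA replicate 1 none of the 5 genes was called for *CHD4*, and without replicate 2 *HIST1H2BF* and *HIST1H2BN* were. *HIST1H2BC* (180.6 and 152.6 CPM in the controls, 120.1 and 95.9 CPM with TRPS1 siRNA, 95.9 and 87.3 CPM with CHD4 siRNA) had -0.62 and -0.86, below a 2-fold change. *HIST1H2BK* was at 105.3 and 65.2 CPM in the controls, 78.3 and 81.2 CPM with TRPS1 siRNA, and 62.3 and 98.5 CPM with CHD4 siRNA, and all 3 groups overlapped. *HIST1H2BD*, chosen after its values were seen, was at 38.5 and 60.9 CPM in the controls and at 68.0 and 68.9 CPM with TRPS1 siRNA, the single tested member with both TRPS1 siRNA libraries above both controls (log2 fold change 0.47, unadjusted p = 0.256).

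Of the H3 genes, 3 of 10 tested were called lower upon silencing *TRPS1* and 4 of 10 upon silencing *CHD4*. *HIST1H3D* (chr6:26196784-26199293, minus strand) was at 135.9 and 111.8 CPM in the controls, 42.8 and 47.1 CPM with TRPS1 siRNA, and 39.3 and 49.9 CPM with CHD4 siRNA. Its log2 fold changes of -1.46 (SE 0.337) and -1.47 (SE 0.381) were both -1.31 without control replicate 1. Its RefSeq span holds that of *HIST1H2AD*, whose counts were too low to be tested, and reads from both cannot be told apart there. *HIST1H3A* was at 41.5 and 28.2 CPM in the controls, 8.82 and 12.1 CPM with TRPS1 siRNA, and 10.5 and 17.4 CPM with CHD4 siRNA, log2 fold changes of -1.73 and -1.31. *HIST2H3D*, at 17.0 and 7.47 CPM in the controls and 3.26 to 4.20 CPM in the knockdowns, had -1.85 and -1.67, and *HIST1H3B* was called upon silencing *CHD4* alone (-1.26, against -1.07 upon silencing *TRPS1*). Without control replicate 1, *HIST1H3A* and *HIST2H3D* kept their calls upon silencing *TRPS1* and were at -0.997 and -0.95 upon silencing *CHD4*, and *HIST1H3B* was at -0.58. *HIST1H3A* alone of the H3 genes was called without TRPS1 siRNA replicate 2, and none without TRPS1 siRNA replicate 1 or CHD4 siRNA replicate 1. Without CHD4 siRNA replicate 2 none of these 4 genes was called, while *HIST1H3C*, not called with all libraries, was (-2.01). *HIST1H3F* (14.7 and 64.4 CPM in the controls, 33.9 and 50.1 CPM with TRPS1 siRNA, 26.8 and 38.7 CPM with CHD4 siRNA) overlapped between all groups, and without control replicate 2 it was called higher in both comparisons (1.53 and 1.17).

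Of the H4 genes, *HIST1H4D* was the 1 of 8 tested that was called, in both comparisons. It was at 83.0 and 28.8 CPM in the controls, 12.6 and 16.01 CPM with TRPS1 siRNA, and 16.2 and 13.4 CPM with CHD4 siRNA, log2 fold changes of -1.96 and -1.91 that became -0.996 and -0.94 without control replicate 1. The call was also lost without TRPS1 siRNA replicate 1 (-1.78) and without CHD4 siRNA replicate 2 (-1.75). *HIST1H4H*, the most abundant H4 member, was at 51.4 and 62.6 CPM in the controls, 36.1 and 27.4 CPM with TRPS1 siRNA, and 37.4 and 31.1 CPM with CHD4 siRNA. All 4 knockdown libraries were below both controls, at log2 fold changes of -0.84 (unadjusted p = 0.0568) and -0.73 (unadjusted p = 0.102). *HIST4H4* on chromosome 12 was at 48.8 and 23.7 CPM in the controls and 14.4 to 20.3 CPM in the knockdowns, with -1.13 (unadjusted p = 0.0511) and -0.89 (unadjusted p = 0.0989), and was called lower in both without control replicate 2 (-1.55 and -1.31). *HIST1H4C* (-0.55 and -0.52) and *HIST1H4E* (-0.20 and -1.002) were not called, though *HIST1H4E* was for *CHD4* without control replicate 2 (-1.61).

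The filter removed 11 members from the TRPS1 comparison: *HIST1H1T*, *HIST1H2AD*, *HIST1H2AG*, *HIST1H2BE*, *HIST1H2BJ*, *HIST2H2BA*, *HIST2H2BC*, *HIST3H3*, *HIST1H4I*, *HIST1H4J* and *HIST1H4K*. The highest level of any of them in a library was 4.18 CPM, that of *HIST1H4K* in control replicate 1. These low values do not show that a gene was silent, because *H3F3A*, the H3.3 gene that most cells express, had 0 to 2 counts per library while *H3F3B* had 3359 to 4609. The same 11 and *HIST1H2BB* were removed from the CHD4 comparison. *HIST1H2BB* had 0 CPM in control replicate 1 and 4.53 CPM in replicate 2, and 1.77 to 2.21 CPM in the knockdown libraries.

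The sum of the members with a long gene span lay closer to control than that of the others. For 8 members the RefSeq gene span is over 1 kb (*HIST1H2BC*, *HIST1H2BD*, *HIST1H2BK*, *HIST1H3D*, *HIST1H3E*, *HIST2H2BA*, *HIST2H2BE* and *HIST2H2BF*), a length that exceeds the stem-loop transcript. They summed to 648.8 and 494.0 CPM in the controls, 406.4 and 399.0 CPM with TRPS1 siRNA, and 319.3 and 430.8 CPM with CHD4 siRNA. The other 52 members summed to 3160 and 1815 CPM in the controls, 1050 and 1170 CPM with TRPS1 siRNA, and 864.3 and 1227 CPM with CHD4 siRNA. The mean was thus 70.5% and 65.6% of control for the long spans and 44.6% and 42.0% for the short spans. Against control replicate 2 alone, the long spans were at 64.6 to 87.2% and the short spans at 47.6 to 67.6%. Among the long spans, 1 of 7 tested genes, *HIST1H3D*, was called in either comparison, and among the short spans 14 of 42 upon silencing *TRPS1* and 18 of 41 upon silencing *CHD4*. *HIST2H2BF* spans 29682 bases and overlaps other genes, *FCGR1A* among them, so its counts (132.9 and 79.4 CPM in the controls, 38.4 to 84.9 CPM in the knockdowns) are uncertain. The groups of long and short spans were chosen with earlier results known, and the difference between them was not tested.

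The HIST3 genes on chromosome 1 were not called in either comparison. *HIST3H2A* (chr1:228457364-228457873, minus strand) was at 26.9 and 36.2 CPM in the controls, 36.7 and 30.8 CPM with TRPS1 siRNA, and 31.4 and 32.9 CPM with CHD4 siRNA, log2 fold changes of 0.10 (SE 0.369) and 0.03 (SE 0.395). Its divergent neighbor *HIST3H2BB* was at 21.5 and 25.8, 22.0 and 24.7, and 18.3 and 32.4 CPM in the same order. The groups overlapped for both genes. The 7 HIST2 members summed to 643.1 and 210.9 CPM in the controls, a 3.05-fold gap, and to 154.9 and 187.4 CPM with TRPS1 siRNA and 115.3 and 217.0 CPM with CHD4 siRNA. With control replicate 2 as the reference, CHD4 siRNA replicate 2 was at 102.9% for HIST2, so the CHD4 siRNA and control libraries overlapped for this sum.

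Divergent pairs that share 1 interval often had unlike values. Upon silencing *TRPS1*, *HIST1H2AM* and *HIST1H2BO*, whose starts lie 240 bp apart, had log2 fold changes of -1.66 and -1.33, and *HIST1H2BC* and *HIST1H2AC*, 246 bp apart, had -0.62 and -0.48. *HIST2H2BE* had 0.27 and *HIST2H2AC*, 236 bp away, -1.95. *HIST1H2AJ* had -2.85 and *HIST1H2BM*, 245 bp away, -0.92, and *HIST1H2BG* had -0.42 and *HIST1H2AE*, 233 bp away, -1.20. Upon silencing *CHD4* the same pairs had -2.08 and -1.18, -0.86 and -0.74, -0.03 and -1.98, -2.73 and -0.75, and -0.42 and -1.32. Part of the gap within the pairs of *HIST2H2AC* and *HIST1H2AJ* rested on control replicate 1, without which these 2 genes were at -0.52 and -0.88 upon silencing *TRPS1*. Their partners moved up as well. *HIST2H2BE* was at 1.00 without that library. *HIST1H2BM* was at 3.4 CPM in control replicate 2 and at 4.3 and 4.9 CPM with TRPS1 siRNA. The pairs were chosen after their values were seen and the differences within them were not tested.

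TRPS1 binding was examined across the chromosome 6 cluster to ask whether peaks lie near these genes. From the start of *HIST1H3A* to the end of *HIST1H2BO* (chr6:26020451-27893891, 1.87 Mb), 4 of the 97 peaks on chromosome 6 and of the 1844 peaks in all were found, and the count was 4 as well with the span widened by 100 kb on each side. The peak at chr6:26311648-26311983 lay 26.3 kb from the start of *HIST1H4H*, and that at chr6:27177809-27178085 lay 30.4 kb from the nearer end of *HIST1H2AH*, for which no strand was at hand. The other 2, at chr6:26571635-26571921 and chr6:26660037-26660316, lay 286.2 and 374.6 kb from the nearest member. Of the 4 peaks, 3 were in the gap of 846.8 kb that separates 29 members on one side from 20 on the other. None of the 49 members was within 5 kb of a peak and 7 were within 50 kb, and with every annotated HIST1 symbol included the shortest distance was 10.1 kb, to the nearer end of the H3C9P entry. The nearest peaks to the HIST2, HIST3 and HIST4 genes were 475.8, 293.5 and 115.2 kb away. The median distance from a gene to the nearest peak was 273.0 kb for the members, against 428.1 kb over all genes matched to RefSeq. The list gives no value per library, so no peak has a replicate error, and the build is hg38 per the labels.

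The 2 members nearest to a peak were not called in either comparison. *HIST1H4H* had -0.84 and -0.73, as given above, and *HIST1H2AH* was at 29.2 and 30.4 CPM in the controls, 13.9 and 17.4 CPM with TRPS1 siRNA, and 10.6 and 20.1 CPM with CHD4 siRNA. The log2 fold changes of *HIST1H2AH*, -0.92 (unadjusted p = 0.0443) and -0.94 (unadjusted p = 0.0773), lay close to the medians of the members, -0.86 and -0.91. Low and higher values lay side by side along the cluster, with *HIST1H1E* at -1.38 and *HIST1H2BD* at 0.47 within a few kb of each other upon silencing *TRPS1*.

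**Figure D3:**
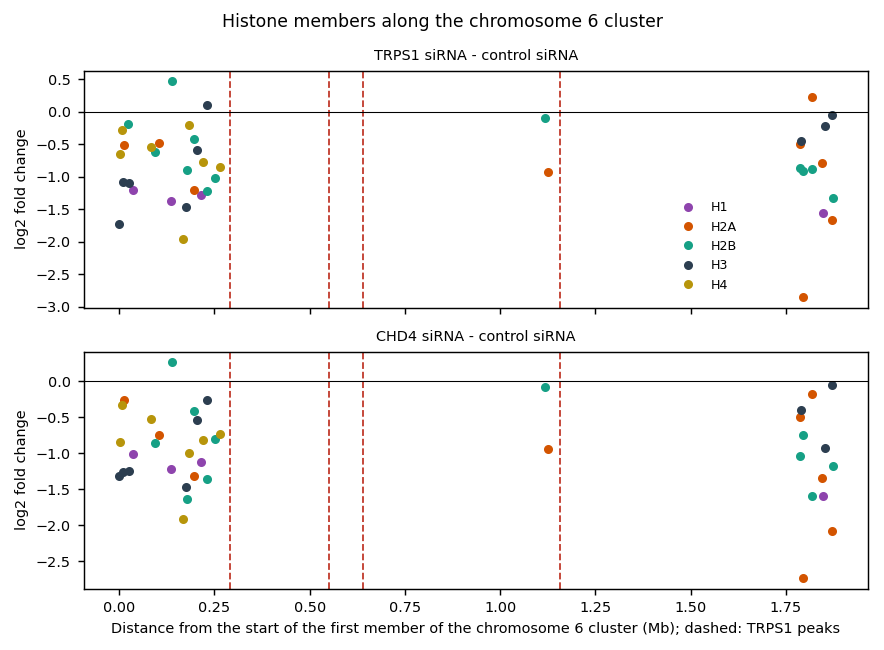
log2 fold change (y axis) of tested members of the chromosome 6 cluster against the distance in Mb from the start of the first member (x axis), for TRPS1 siRNA (top) and CHD4 siRNA (bottom) against control siRNA, colored by class. Dashed lines mark the 4 TRPS1 peaks, 3 of which fall in the gap without members.

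The knockdowns were also compared directly, without the control libraries. Of 48 members tested, 0 were called lower and 0 higher, where 1.56% and 2.12% of all 13143 genes were called. The median log2 fold change (CHD4 siRNA against TRPS1 siRNA) was -0.02, against -0.00 over all genes, 27 of the 48 were below 0 (background 50.2%), and the values ranged from -0.80 (*HIST1H4E*) to 0.42 (*HIST1H3A*). edgeR's quasi-likelihood test gave 0 members at an adjusted p under 0.05. At an unadjusted p under 0.05 it gave 0 lower (background 7.33%) and 0 higher (background 8.07%). DESeq2 (background 3.47%) and the likelihood ratio test (background 4.34%) called 0 members at the adjusted level. Both CHD4 siRNA libraries were below both TRPS1 siRNA libraries for 6 members (background 24.1%) and above them for 3 (background 22.8%). The CHD4 siRNA libraries differed from each other, at 1184 and 1658 CPM in sum. The median was -0.36 without CHD4 siRNA replicate 2 and 0.13 without CHD4 siRNA replicate 1.

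The factors that make and process histone mRNA were read from a list of 26 genes, all of which were tested. Upon silencing *TRPS1*, 3 were called lower (background 3.17%) and 0 higher (background 2.7%). The 3 were *E2F1* (-1.25), a transcription factor of S-phase genes, *CDK2* (-1.36), the kinase that phosphorylates NPAT, and its partner *CCNA2* (-1.35). Upon silencing *CHD4*, 3 were called lower (background 2.85%) and 0 higher (background 2.6%). These were *CDK2* (-1.74), *CCNE1* (-1.27), a cyclin of CDK2, and *CSTF2* (-1.36), a cleavage factor. The median of the 26 was -0.13 and -0.07. *NPAT* itself was at 65.4 and 134.0 CPM in the controls, 84.3 and 125.9 CPM with TRPS1 siRNA, and 81.0 and 132.5 CPM with CHD4 siRNA, and the groups overlapped. *SLBP* was at 61.8 and 66.3 CPM in the controls, 44.6 and 53.2 CPM with TRPS1 siRNA, and 44.4 and 56.7 CPM with CHD4 siRNA, log2 fold changes of -0.38 and -0.33 with all knockdown libraries below both controls. *CASP8AP2*, which acts with NPAT, had 0.08 and 0.07, and *LSM11*, a subunit of the U7 particle that trims histone pre-mRNA, had -0.85 and -0.03. Without control replicate 1, *E2F1* and *CDK2* were at -0.76 and -0.90 upon silencing *TRPS1* and lost their calls, as did *CSTF2* upon silencing *CHD4* (-0.88). *CCNA2* (-1.59), *CCNE1* (-1.47) and *CDK2* upon silencing *CHD4* (-1.28) were still called. Without replicate 1 of the knockdown, none of the called genes kept its call, and the median of the 26 was -0.09 and 0.04. That median was -0.24 and -0.26 without control replicate 1, and -0.01 and 0.10 without control replicate 2. Without replicate 2 of the knockdown it was -0.23 and -0.22, with the called genes at -2.00 to -1.33.

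Genes of DNA replication were also lower, and some of them were called. The list of 27 S-phase genes shares *E2F1*, *CCNE2* and *SLBP* with the previous one. Upon silencing *TRPS1*, 6 were called lower (background 3.17%) and 0 higher (background 2.7%), and the median was -0.80. Among the 6 were *GINS2* (-1.88) and *MCM5* (-1.32) of the replicative helicase and the licensing factor *CDT1* (-1.42). Both TRPS1 siRNA libraries were below both controls for 20 of the 27 (background 21.6%) and above both for 0 (background 22.5%). Upon silencing *CHD4*, 8 were called lower (background 2.85%) and 0 higher (background 2.6%), and the median was -0.75. Among the 8 were *TYMS* (-2.09), the thymidylate synthase, *GINS2* (-1.83) and *MCM5* (-1.76). Both CHD4 siRNA libraries were below both controls for 18 of the 27 (background 20%) and above both for 0 (background 19.8%). The 27 genes summed to 3710 and 3257 CPM in the controls, 1355 and 2484 CPM with TRPS1 siRNA, and 1110 and 2575 CPM with CHD4 siRNA. The controls thus agreed better than for the histones, and in both knockdowns replicate 1 was lower than replicate 2. The histone sums of the TRPS1 siRNA libraries, 1457 and 1569 CPM, did not show this gap, and those of the CHD4 siRNA libraries, 1184 and 1658 CPM, showed part of it. Without replicate 1 of the knockdown, none of the named S-phase genes kept its call, and the medians of the 27 were -0.36 and -0.28. Without control replicate 1, *GINS2*, *MCM5* and *CDT1* were at -0.87, -0.76 and -0.64 upon silencing *TRPS1*. *GINS2*, *MCM5* and *TYMS* were then at -0.82, -1.19 and -1.88 upon silencing *CHD4*. Among the other called genes, *TK1* was at -1.08 and -0.99 and *MCM4* at -0.88 and -1.06 in the 2 comparisons. *MCM3*, *MCM7* and *UHRF1*, called upon silencing *CHD4* alone, were at -0.93, -0.89 and -0.79. Most of these values were below a 2-fold change. The medians of the 27 were -0.71 and -0.79 without control replicate 1 and -0.80 and -0.72 without control replicate 2. They were -1.30 and -1.61 without replicate 2 of the knockdown. The part of these genes in the histone result was not tested.

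**Figure D4:**
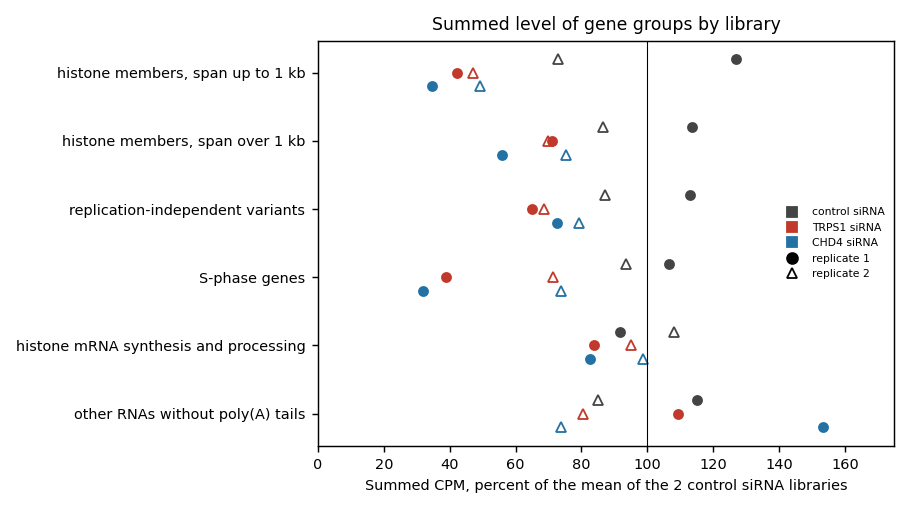
Summed CPM of 6 gene groups (y axis) in each library, as a percent of the mean of the 2 control siRNA libraries (x axis, from 0), with filled circles for replicate 1 and open triangles for replicate 2. The short-span histone members lie below both controls in all 4 knockdown libraries, the S-phase genes show a gap between replicates 1 and 2 of both knockdowns, and the histone mRNA factors stay near the control level.

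Replication-independent histones come from genes whose transcription is, for most of them, not confined to S phase. The 10 tested variants had median log2 fold changes of -0.35 and -0.45. These medians were -0.16 and -0.13 without control replicate 1, and -0.47 and -0.66 without control replicate 2. Of these variants, 1 was called lower in each comparison (background 3.17% and 2.85%), *H2AFX*, which codes for H2A.X and also gives a stem-loop transcript. It was at 382.7 and 114.5 CPM in the controls, 59.7 and 85.9 CPM with TRPS1 siRNA, and 50.5 and 93.5 CPM with CHD4 siRNA, log2 fold changes of -1.77 and -1.78 that became -0.64 and -0.65 without control replicate 1. It was not called without replicate 1 of either knockdown, at -1.51 and -1.38. Its controls differed in the direction seen for the H2A members. *H3F3B*, coding for H3.3, was at 271.9 and 336.0 CPM in the controls, 322.1 and 302.5 CPM with TRPS1 siRNA, and 399.1 and 367.6 CPM with CHD4 siRNA. *H2AFZ*, coding for H2A.Z, was at 143.2 and 339.8 CPM in the controls, and its log2 fold changes were -0.59 and -0.17. Of 18 tested histone chaperones and related factors, 1 was called lower upon silencing *TRPS1* (background 3.17%), *ASF1B* (-1.22). Upon silencing *CHD4*, 2 were called lower (background 2.85%), *CHAF1B* (-1.23), a subunit of the chaperone CAF-1, and *IPO4* (-1.41), which imports histones. Without control replicate 1 these 3 genes lost their calls, with *ASF1B* at -0.91, *CHAF1B* at -1.04 (unadjusted p = 0.0524) and *IPO4* at -0.43. None of the 3 kept its call with either replicate of the knockdown left out. The median of the 18 was -0.34 and -0.24 with all libraries, and -0.20 and -0.24 without replicate 1 of the knockdown. That median was -0.47 and -0.66 without replicate 2 of the knockdown, and -0.28 and -0.26 without control replicate 2. Without control replicate 1 it was -0.14 and -0.22.

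The summed level of other RNAs without poly(A) tails overlapped between the groups. Of 8 tested (12 of 23 listed were present), 0 were called lower (background 3.17%) and 1 higher (background 2.7%) upon silencing *TRPS1*. It was the small Cajal body RNA *SCARNA7* (0.37 and 5.51 CPM in the controls, 34.2 and 21.9 CPM with TRPS1 siRNA). Upon silencing *CHD4*, 0 were called either way (background 2.85% lower and 2.6% higher). Both TRPS1 siRNA libraries were below both controls for 2 of the 8 (background 21.6%) and above both for 1 (background 22.5%). For CHD4 siRNA these counts were 0 (background 20%) and 1 (background 19.8%). The median log2 fold changes of the 8 were -0.06 and 0.43, and -0.15 and 0.28 without control replicate 2. Without control replicate 1 they were 0.01 and 0.44. For *CHD4* silencing the median was -0.25 without CHD4 siRNA replicate 1 and 0.90 without CHD4 siRNA replicate 2. The 12 RNAs present summed to 24560 and 18170 CPM in the controls and 23320 and 17160 CPM with TRPS1 siRNA. With CHD4 siRNA the sum was 32770 and 15780 CPM, so the groups overlapped. The most abundant of these RNAs, *RN7SK*, was at 13470 and 4570 CPM in the controls and weighs most in the sum. The part of library preparation in the histone result was not tested.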

How the data were processed

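The authors depleted ribosomal RNA, trimmed reads and counted them per gene with HTSeq 0.9.0, and the deposited tables hold raw counts. Peaks were called by the authors with MACS2 2.1.1 on BWA 0.7.12-r1039 alignments (hg38 per the labels), and the deposited list gives their positions. Totals of 10333138 to 14668358 counts per library set the counting error. Samples were grouped by siRNA label. In edgeR 4.0.16 (R 4.3.3), a gene was kept if more than 2 CPM were reached in 2 or more of the 4 libraries, scaled by TMM and tested by the quasi-likelihood F-test (prior count 0.125, no covariates), with Benjamini-Hochberg adjustment over all genes tested. SE values were derived from the log2 change and its F statistic. Printed CPM values use TMM factors of all 6 libraries, and sums include members below the filter. The code was tested on simulated data. All 60 symbols matched RefSeq (GRCh38.p14), whose models may differ from those used for counting. Members, lists and tests were chosen with earlier results of these data known. Named members are the 4 most abundant of each class, those past the thresholds, the top member of each gene group and those nearest to a peak, and others are marked. Alternatives were DESeq2 1.42.0, the likelihood ratio test, RLE factors, library sizes alone, other filters and prior counts, 1 fit of all 6 libraries, a replicate block and leaving out each library. Figures used matplotlib 3.10.9 (Python 3.11.15).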

Additional observations from a re-analysis of the deposited data

How the results depend on the processing

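Sums and medians of the histone members were lower than control in both knockdowns under every setting tried, while the number of genes called was not stable. With a library left out, members called lower ranged from 2 to 25 for TRPS1 siRNA and from 4 to 24 for CHD4 siRNA, members called higher from 0 to 1 in both, and members at an adjusted p under 0.05 from 0 to 33 and from 0 to 25 (the highest without control replicate 2, where 47.4% and 30.3% of all genes passed). The medians ranged from -1.15 to -0.57 and from -1.44 to -0.69, and the log2 ratios of the sums from -1.33 to -0.61 and from -1.42 to -0.70. In the direct comparison the median ranged from -0.36 to 0.13, the ratio from -0.35 to 0.13 and calls lower from 0 to 7, so no direction was kept. The cause was not tested. DESeq2 called 1 and 2 members at an adjusted p under 0.05 (background 0.302% and 0.387%). Without a filter, 2 and 1 members were called higher, where 635 of 18984 and 730 of 18973 genes were. For CHD4 siRNA 5 members passed the adjusted p without a filter (8.33%, background 0.585%). In the direct comparison 1 member was called higher without a filter, where 463 of 19544 genes were. With the replicate number as a block, 1 member passed the adjusted p for TRPS1 siRNA (background 0.248%). In the direct comparison 6 of 48 (12.5%) passed with the block (0 without it), where 25.7% of all genes passed. Against control, 17 and 18 members were called lower with the block (background 3.71% and 2.93%). The deviations of replicate 1 correlated at 0.05 and 0.01 between control and knockdowns and at 0.615 between the knockdowns, so equal numbers deviated together between the knockdowns and not with the controls. The labels do not say what a number stands for. Scaling by library sizes alone moved the median of all genes from -0.02 to 0.10 and 0.11 and the calls from 410 lower and 349 higher to 253 and 490 (TRPS1 siRNA) and from 368 and 336 to 222 and 458 (CHD4 siRNA), with 14 members lower and 0 higher in both. Depth limits the low members.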
